A study of Mus musculus with 6 samples.

Results

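The Slco genes encode organic anion transporting polypeptides, membrane carriers that bring bile acids, steroid sulfates, thyroid hormones, prostaglandins and many drugs into cells. The 10 genes described here were Slco1a4, Slco1a5, Slco1a6, Slco1b2, Slco1c1, Slco2a1, Slco2b1, Slco3a1, Slco4a1 and Slco5a1, out of 23462 genes named on the array. They were found as the probes whose accession belongs to one of these genes, and 5 of the 10 had a probe bright enough to be compared among the 13138 genes tested. The family was chosen by the measured PNP minus control difference itself, because Slco1a4 had the largest rise of the genes tested. The differences of its members between the groups are therefore a description, without a test.

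Gene expression was measured in TM3 cells, an established mouse line derived from immature testicular Leydig cells, the cells that make testosterone. A control group of 3 samples received 0 µM and a second group of 3 samples received 10 µM 4-nitrophenol (PNP, nPNP in the labels), a nitrated phenol formed from parathion and found in diesel exhaust, both for 24 h. The 6 samples were hybridised to 1-channel Agilent arrays of a single slide, 1 array a sample. The labels number the samples within a group without naming a culture, so p-values cover the spread among these arrays alone, and that spread could be technical. Between 58.1% and 61.0% of probes were well above background on an array, no spot was saturated, and the small number of arrays limits the precision. TM3 is a single line, and of 8 Leydig cell markers with a probe, Star and Nr5a1 were well above background on all 6 arrays. Cyp17a1 was so on 3 of 3 control and 2 of 3 PNP arrays, and Hsd3b1 on 1 control array. Cyp11a1, Lhcgr, Hsd3b6 and Hsd17b3 were so on none.

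The carriers of this family span the membrane many times and move their substrates without using ATP, in exchange for other anions. Slco1a and Slco1b members are best known from liver, kidney and the blood-brain barrier, where Slco1a4 carries bile acids, steroid conjugates and digoxin. In rodents the Slco1a genes form a cluster of close copies that arose by gene duplication, and Slco1a4 is a classic target of the xenobiotic receptor PXR in liver. In the testis, members of the wider family have been studied as carriers of steroid conjugates and thyroid hormones.

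Of the 10 members, 5 lie on chromosome 6 in the RefSeq annotation, in the order Slco1c1, Slco1b2, Slco1a4, Slco1a6 and Slco1a5, with Slco1a1 between Slco1a4 and Slco1a6. The RefSeq promoter table held 8 of the 10 members. The 250 bases before the start of Slco1a4 and before an internal start of Slco1a5 are shown because they are the 2 most alike promoters of the cluster, while the signals of these genes differed in opposite directions. In an alignment of both, 152 of 188 aligned bases were identical (80.9%), against 59.6% to 64.5% between the Slco1a4 promoter and the other Slco1a promoters in the table, including the first Slco1a5 start. Capitals mark runs of at least 8 identical aligned bases, of which there were 6 covering 77 bases. The Slco1a4 stretch lies on the minus strand at chr6:141856221-141856470 and the Slco1a5 stretch on the minus strand at chr6:142278875-142279124, both in GRCm38.p6.
Slco1a4: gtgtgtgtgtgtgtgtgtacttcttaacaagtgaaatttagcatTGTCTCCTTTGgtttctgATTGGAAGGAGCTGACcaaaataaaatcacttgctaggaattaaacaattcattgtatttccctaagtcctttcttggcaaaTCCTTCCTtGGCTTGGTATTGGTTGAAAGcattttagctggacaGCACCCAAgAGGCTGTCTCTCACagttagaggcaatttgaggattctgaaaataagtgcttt
Slco1a5: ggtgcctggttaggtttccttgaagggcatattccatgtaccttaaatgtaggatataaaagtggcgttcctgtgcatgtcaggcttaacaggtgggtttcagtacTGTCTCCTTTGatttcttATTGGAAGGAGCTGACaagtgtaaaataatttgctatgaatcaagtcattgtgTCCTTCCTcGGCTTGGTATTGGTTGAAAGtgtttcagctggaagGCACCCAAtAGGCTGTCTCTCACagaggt

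Both stretches were searched on both strands for the antioxidant response core TGACNNNGC, the aryl hydrocarbon receptor core GCGTG and the nuclear receptor half-sites AGGTCA and AGTTCA, and none of these letters occurred. Among 32851 promoters of the same length, 10.2% held the first, 28.2% the second and 11.8% AGTTCA, and 4607 held AGGTCA. Of the other members, both Slco4a1 starts held 2 matches of GCGTG each, and the second of them 1 of AGGTCA. Slco1b2 held 1 match of each half-site, and Slco1a6 and 1 start of Slco2b1 held 1 of AGTTCA. A match describes the letters and not a bound site. Which of the Slco1a5 starts TM3 cells use was not measured.

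The scale used below is the scaled log2 signal, the log2 of the processed signal of a probe minus the 75th percentile of its array. A value of -4 thus stands for a signal 4 doublings below that percentile. Levels of different probes are not compared, since probes differ in brightness.

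Slco1a4, the bile acid and drug carrier that led to this choice, was dim in control cells and brighter on 2 of the 3 PNP arrays. Its probe (A_51_P335569) had scaled log2 signals of -4.45, -5.19 and -5.08 on controls 1, 2 and 3, and of -4.38, -2.58 and -3.29 on PNP 1, 2 and 3. Control 1 alone of the controls was well above background, while all 3 PNP arrays were. The lowest PNP value lay 0.073 above the highest control value, so the groups were barely apart. In unscaled processed signal they overlapped, with 178.1 on control 1 and 158.4 on PNP 1. These are bulk samples, in which a change in the number of cells carrying a transcript and a change in RNA per cell cannot be told apart.

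The log2 difference of Slco1a4 was 1.49 (SE 0.42, 95% interval 0.52 to 2.45, 3 against 3 arrays). It describes the value that chose the family, and its interval is no test. The probe entered the fit through the PNP arrays alone, and with 1 of 3 controls well above background the control mean is loosely measured. This was the largest rise of the 13138 genes tested, followed by Il1rl2 (1.11). The largest difference in either direction was a fall, of the predicted gene Gm27166 (-3.12). The spread of Slco1a4 was also among the widest: 0.419% of genes had an SE at least as large. The SD was 0.40 (n = 3) in controls and 0.91 (n = 3) with PNP. In processed signal PNP 2 was at 636.2 and PNP 3 at 372.1. The scanner's own error for this spot, which does not cover the spread between samples, was 28.8 on control 1 and 26.7 on PNP 1, larger than the difference between those arrays. The local background at the spot was 49.5 to 64.5 on controls and 61, 51 and 50.5 on PNP 1, 2 and 3.

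PNP 2 and PNP 3, the arrays with high Slco1a4, were the only arrays of the second row of the slide, by the array positions in the file headers. The first row held the 3 controls and PNP 1. Within that row PNP 1 exceeded the control mean by 0.525, while the PNP arrays of row 2 exceeded it by 1.97. With slide row in the fit the difference was accordingly 0.525 (SE 0.36), and 208 genes had a larger positive one. No control lay in row 2, so for these 2 arrays PNP and slide row cannot be told apart.

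**Figure D1:**
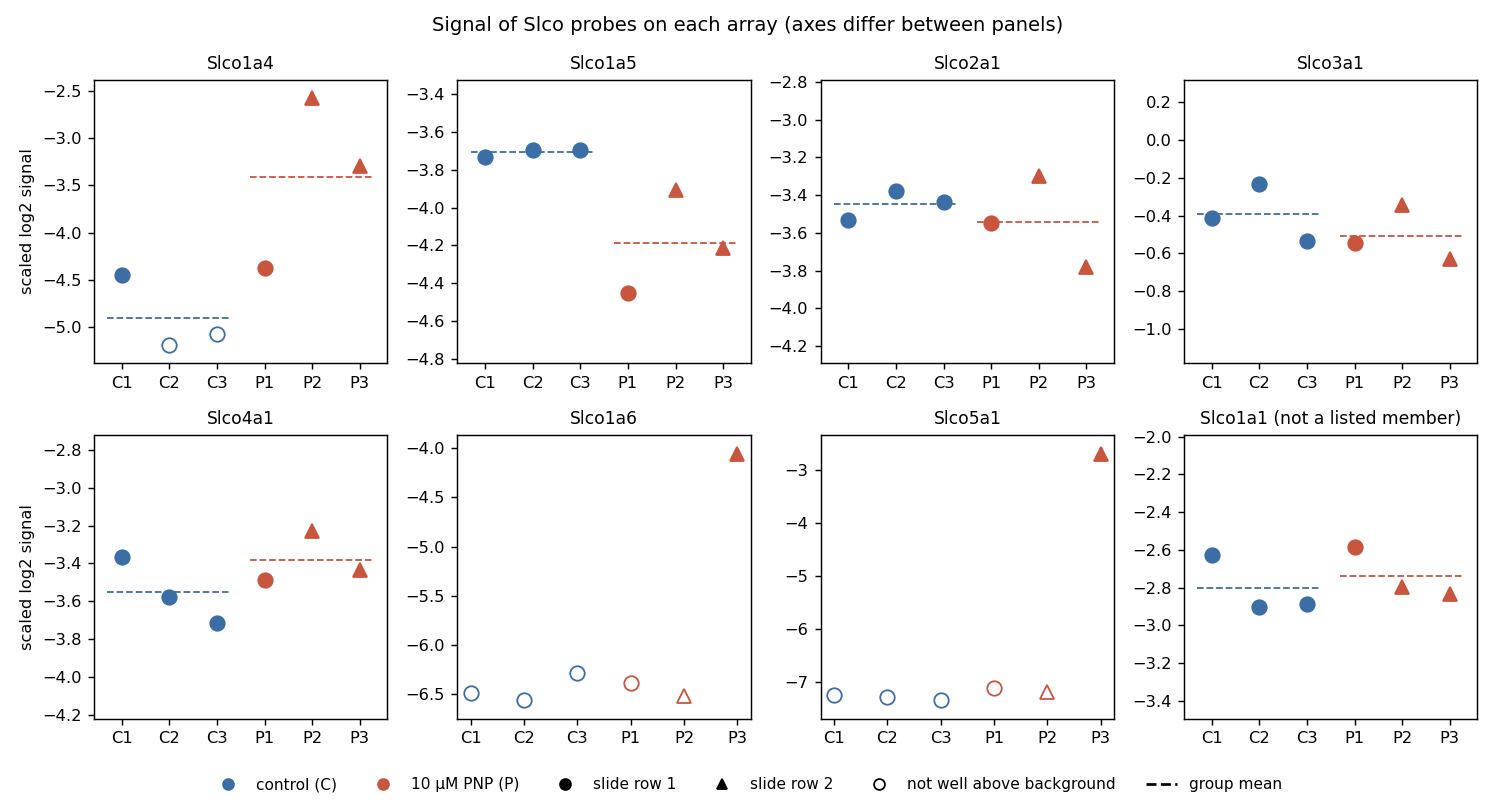
Scaled log2 signal (vertical axis, a separate range in each panel) of 7 members and Slco1a1 on the control arrays (C1 to C3) and the PNP arrays (P1 to P3), with dashed lines at group means, triangles for slide row 2 and open symbols for signals not well above background. Slco1a4 was high on P2 and P3 (-2.58 and -3.29), while P1 (-4.38) lay next to C1 (-4.45), and Slco1a6 and Slco5a1 stood above background on P3 alone.

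Slco1a5, a neighbouring carrier of bile acids and thyroid hormones, was lower with PNP. Control signals were nearly equal at -3.73, -3.69 and -3.69, and PNP signals were -4.45, -3.91 and -4.21. All 3 PNP values lay below all controls, and all 6 arrays were well above background. The log2 difference was -0.48 (SE 0.14, 95% interval -0.80 to -0.16), or 0.715-fold. Here PNP 1, of the same slide row as the controls, was the lowest array, with a difference of -0.746 within that row, and a mean difference of -0.352 for the row 2 arrays. Slco1a5 was thus lower on PNP arrays of both rows.

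The groups did not overlap for 2 of the 5 tested members, Slco1a4 (PNP higher) and Slco1a5 (PNP lower). The same held for 13.7% of all genes tested, with 9.83% higher and 3.83% lower. With limma and Benjamini-Hochberg adjustment, 0 of 13138 genes (0%) had an adjusted p below 0.05 (smallest adjusted p = 0.203), with 843 genes at an unadjusted p below 0.05.

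Slco1a1 is a close copy that lies beside Slco1a4 and is not among the 10 members. It had 1 probe well above background on all 6 arrays, which read -2.62, -2.90 and -2.89 in controls and -2.58, -2.80 and -2.83 under PNP. The groups overlapped and the log2 difference was 0.066 (95% interval -0.20 to 0.34, adjusted p = 0.955 in the limma fit over all genes). Its second probe was above background on no array. Because the Slco1a genes are close copies and probe sequences were not used here, binding of one gene's RNA to another's probe was not tested. The Slco1a4, Slco1a5 and Slco1a1 probes had different patterns over the arrays, as the plot of signals by array shows. That is no test of such binding.

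Slco1a6, the remaining carrier of that cluster, was well above background on PNP 3 alone, at -4.06. On the other PNP arrays it was at -6.38 and -6.51, and the controls ran from -6.56 to -6.28, none above background. Slco5a1, a member whose substrates are little known, showed the same kind of pattern. One of its 2 probes stood at -2.70 on PNP 3 and between -7.34 and -7.12 on the other 5 arrays, and its second probe was not above background on any array, with -6.73 on PNP 3. These were 2 of the 15 member probes. Over all probes, 508 (0.897%) were well above background on PNP 3 alone and 637 (1.12%) on PNP 2 alone. On each control array 220 to 303 probes were so, and 115 on PNP 1. No fold is given for either gene, since the mean over the PNP arrays (-5.65 for Slco1a6 and -5.67 for Slco5a1) was under the detection floor of the controls (-5.10).

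Slco2a1, the prostaglandin transporter, showed no separation of the groups. Control arrays gave -3.53, -3.38 and -3.44, and PNP arrays gave -3.55, -3.30 and -3.78. PNP 2 was the highest and PNP 3 the lowest of all 6 arrays. The difference was -0.09 (95% interval -0.40 to 0.21), and it turned to 0.03 with normexp background correction.

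Slco3a1, a widely expressed carrier of prostaglandins and thyroid hormone, had 3 tested probes, which did not point the same way. The brightest had -0.41, -0.23 and -0.53 in controls and -0.54, -0.34 and -0.63 with PNP, a difference of -0.11 (95% interval -0.39 to 0.16). The second differed by 0.09 (SE 0.10). The third, matched to another transcript of the gene, differed by 0.34 (SE 0.17), from -2.69, -2.98 and -2.70 in controls to -2.16, -2.36 and -2.81 with PNP. The groups overlapped for each of the 3 probes, and the mean over the probes gave 0.106.

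Slco4a1, a thyroid hormone carrier found in many tissues, had 2 tested probes with like values. The first had -3.36, -3.58 and -3.72 in controls and -3.49, -3.23 and -3.43 with PNP. The second had -3.57, -3.59 and -3.51 in controls and -3.67, -3.19 and -3.45 with PNP. PNP 2 was the highest array for both, and the groups overlapped. The differences were 0.17 (95% interval -0.11 to 0.45) and 0.12 (SE 0.13).

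**Figure D2:**
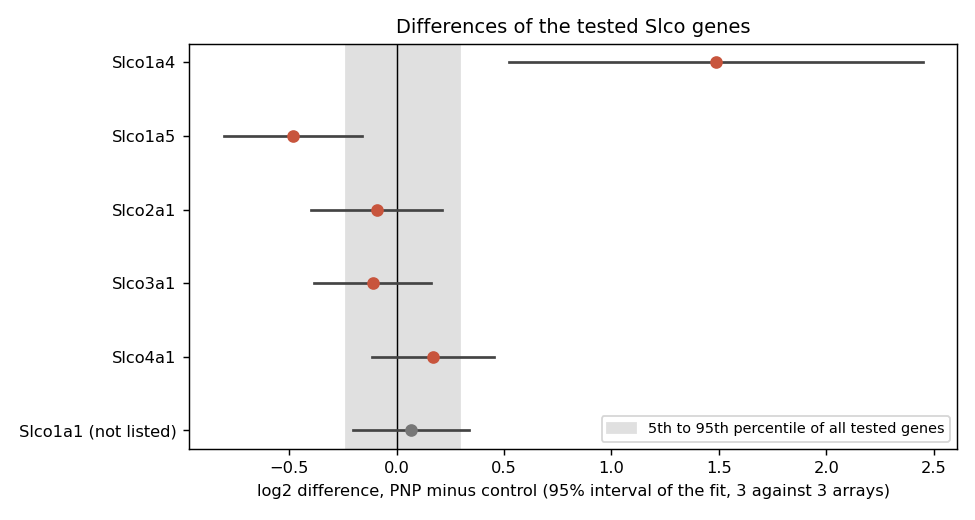
Log2 difference between PNP and control (horizontal axis) of the 5 tested members and Slco1a1, with 95% intervals of the fit over 3 against 3 arrays, and the range from the 5th to the 95th percentile of all tested genes in grey (-0.234 to 0.293). Slco1a4 (1.49) and Slco1a5 (-0.48) lie outside the grey range, and the other 4 lie within it.

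The remaining 3 members reached a signal well above background on none of the arrays. They were Slco1b2, the bile acid carrier of hepatocytes, Slco1c1, the thyroxine carrier of brain vessels, and Slco2b1, a carrier of steroid sulfates in gut, liver and vessels. Slco1b2 signals ran from -7.40 to -7.15 over all 6 arrays, Slco2b1 signals from -7.35 to -7.01, and the 2 Slco1c1 probes from -7.42 to -6.03. Of the markers of cells that use these carriers, Cdh5, Kdr, Tek, Tie1, Cldn5 and Emcn of endothelial cells were above background on no array. The same held for Alb, Apoa1, Ttr, Serpina1a, Fgb and Ahsg of hepatocytes, while Apoa2 and Cyp2e1 of hepatocytes were above background on all 6. Of the other endothelial markers, Vwf was above background on 2 of 3 control and 3 of 3 PNP arrays, and Pecam1 on 1 PNP array. The summed signal of 8 endothelial markers, relative to the 75th percentile of the array, was 0.110 to 0.129 in controls and 0.136 to 0.139 with PNP. For 8 hepatocyte markers it was 0.234 to 0.290 and 0.270 to 0.315. In each list 6 of the 8 were above background on no array, so these sums include signals near the floor. Such signals come out higher where the 75th percentile is lower. It was 3297 to 3802 on PNP arrays and 3899 to 4171 on controls, and its part in the sums was not tested. Of 5 other Slco genes with a probe, Slco4c1, Slco6b1, Slco6c1 and Slco6d1 were above background on no array, and no probe was matched to Slco1a7 or Slco1a8.

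The Slco1a4 and Slco1a5 differences kept their direction under the scalings, background correction and left-out arrays shown in the plot of other processing. Slco1a4 ranged from 1.07 without PNP 2 to 1.97 without PNP 1 and was 0.895 (SE 0.27) with normexp background correction, which compresses dim signals. In the authors' deposited values it was 1.42, with log2 values of 7.41, 6.75 and 6.96 in controls and 7.56, 9.25 and 8.55 with PNP. Slco1a5 ranged from -0.626 without PNP 2 to -0.352 without PNP 1 and was -0.298 (SE 0.14) with normexp background correction.

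**Figure D3:**
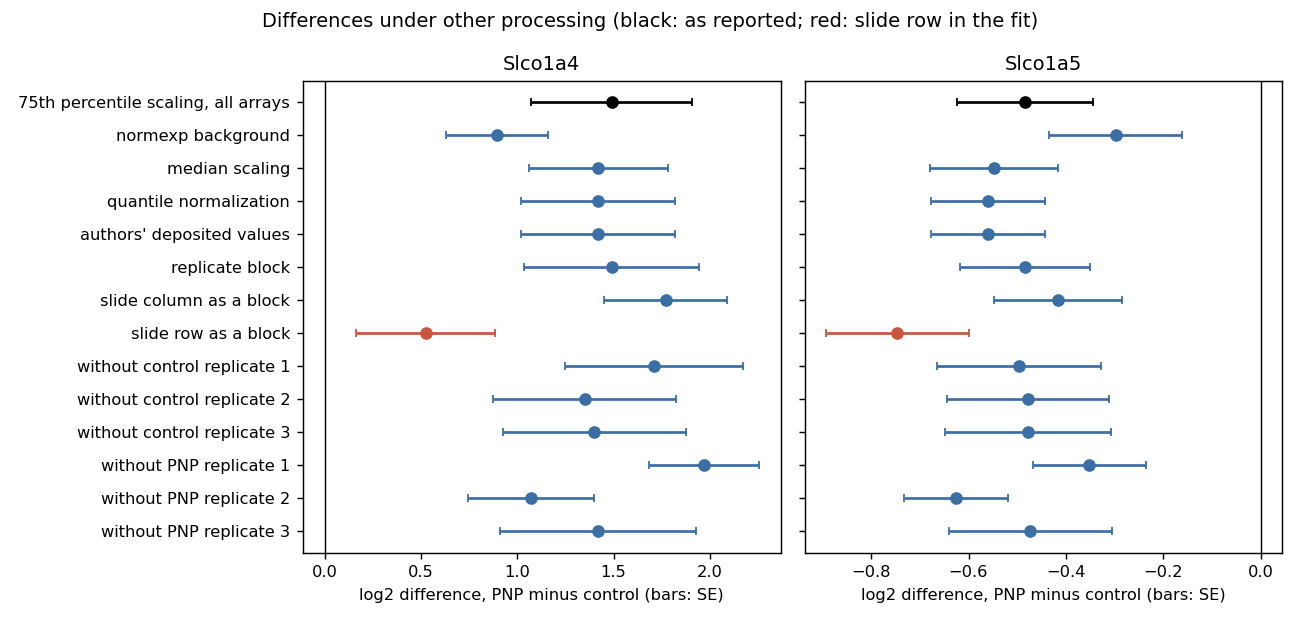
Log2 difference between PNP and control (horizontal axis, bars are SE) of Slco1a4 and Slco1a5 under each setting named at the left. Slco1a4 falls to 0.525 and Slco1a5 to -0.746 with slide row in the fit, which leaves PNP 1 against the controls.

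The genes whose signals followed Slco1a4 most closely over the 6 arrays were Notum, an enzyme that inactivates Wnt proteins (Pearson r = 0.990), Crct1 (0.989), Ckmt1, a mitochondrial creatine kinase (0.988), Gfy (0.988) and Nxf2, a nuclear RNA export factor (0.987). They were picked as the highest of 9928 genes, of which 80 had r above 0.95, and the 6 points share the arrays and their scaling. Their own differences were smaller, from 0.21 for Notum to 0.55 for Nxf2. In each of these 5 genes PNP 2 and PNP 3 stood above the other 4 arrays, a pattern that their choice by likeness to Slco1a4 brings with it. Nxf2 had -3.97, -4.19 and -4.11 in controls and -4.01, -3.12 and -3.48 with PNP, so PNP 1 lay within the control range there, as it did for Ckmt1 and Gfy.

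Genes that work beside these carriers were read from 5 lists. No gene of them passed the limma test across all genes, in either direction. An unadjusted limma p below 0.05 was found for 3 of 15 carriers, 1 of 9 thyroid hormone genes and 3 of 13 transcription factors. It was found for 0 of 10 prostaglandin genes and 0 of 6 steroid sulfation genes, against 843 of all 13138 genes tested. The medians of the lists are set against the median of all genes, 0.039. Other uptake and efflux carriers of organic anions and bile acids had 15 of 29 genes tested, 9 higher and 6 lower by sign, with a median of 0.043 and 26.7% of them with groups that did not overlap, against 13.7% of all genes. In the lists that follow that share was 11.1% for thyroid hormone genes, 10% for prostaglandin genes, 0% for steroid sulfation and 23.1% for transcription factors. By sign, 61.9% of all genes were higher, and 41.9% with median scaling. Slc22a3, an organic cation transporter, differed by 0.38 (SE 0.12, limma adjusted p = 0.740), from -3.35, -3.75 and -3.58 to -3.28, -3.22 and -3.04. Slc10a1, the sodium-dependent bile acid carrier of hepatocytes, differed by 0.25 (SE 0.09, limma adjusted p = 0.740). Its probes disagreed in level, 1 being bright on all arrays and the second above background on none, so the gene behind the bright signal was not settled.

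Genes of thyroid hormone transport, deiodination and receptors had 9 of 14 members tested, 8 with a positive difference (61.9% of all genes had one) and a median of 0.143. Dio1, a deiodinase that activates thyroxine, differed by 0.32 (SE 0.11, limma adjusted p = 0.740), with -2.56, -2.82 and -2.78 in controls and -2.39, -2.54 and -2.29 with PNP. Its second tested probe overlapped between the groups, with -2.85, -2.90 and -3.13 in controls and -2.92, -2.60 and -2.81 with PNP. The amino acid and thyroid hormone carrier Slc7a5 differed by 0.28 (SE 0.12, limma adjusted p = 0.766). The list's median was 0.035 in the authors' deposited values, where that of all genes was 0.009.

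Genes of prostaglandin synthesis, breakdown and receptors had 10 of 21 members tested, 8 with a positive difference (61.9% of all genes had one) and a median of 0.081. Of these, 8 were well above background on all 6 arrays, while Ptger1 passed the filter through the controls alone and Ptgds through PNP alone. Ptges, a prostaglandin E synthase, differed by 0.28 (SE 0.11, limma adjusted p = 0.766) on its brightest probe, from 2 values per group. Its spots left out as outliers read 3.04 on control 1 and 2.87 on PNP 3, and with them the groups overlapped. Ptges was the 1 gene of this list with groups apart. Its 2 other tested probes were highest on PNP 1 and lowest on PNP 2. Cbr1, a carbonyl reductase that also acts on prostaglandins, differed by 0.16 (SE 0.10, limma adjusted p = 0.862). Hpgd, which breaks down the prostaglandins that Slco2a1 takes up, was above background on no array.

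All 6 tested genes of the list of steroid sulfation and desulfation, of 12 on it, had a negative difference. Their median was -0.101, and no gene had groups that were apart. No probe was matched to Sts, the desulfating enzyme of the list, so desulfation was not measured. Of all genes, 61.9% had a positive difference, and 41.9% with median scaling. Of the 6, Sult2b1 and Sult1e1 passed the filter through the controls alone, with 1 and 2 of 3 PNP arrays well above background, so their negative sign is not independent of the filter. Slc35b3, which brings the sulfate donor into the Golgi, differed by -0.18 (SE 0.09, limma adjusted p = 0.826). Sult2b1, a sulfotransferase for cholesterol and related steroids, differed by -0.28 (SE 0.21, limma adjusted p = 0.897), where PNP 2 (-5.58) stood apart from the other arrays (-4.91 to -4.69). The list's median was -0.165 with median scaling and -0.160 in the authors' deposited values. It was 0.322 where the percentile was taken without outlier spots, a scaling that moved the median of all genes to 0.462.

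Transcription factors known to regulate Slco genes had 13 of 18 members tested, 7 positive and 6 negative, with a median of 0.064. Nr1i2, the PXR gene, was above background on no array, and Nr1i3, the related receptor CAR, on at most 1. Nr1h3, the oxysterol receptor LXR alpha, differed by 0.31 (SE 0.10, limma adjusted p = 0.740), with its second probe overlapping between the groups. Ctnnb1, the beta-catenin gene, differed by -0.25 (SE 0.09, limma adjusted p = 0.740) on a dim probe, while the spots of its bright probe were marked as outliers.

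**Figure D4:**
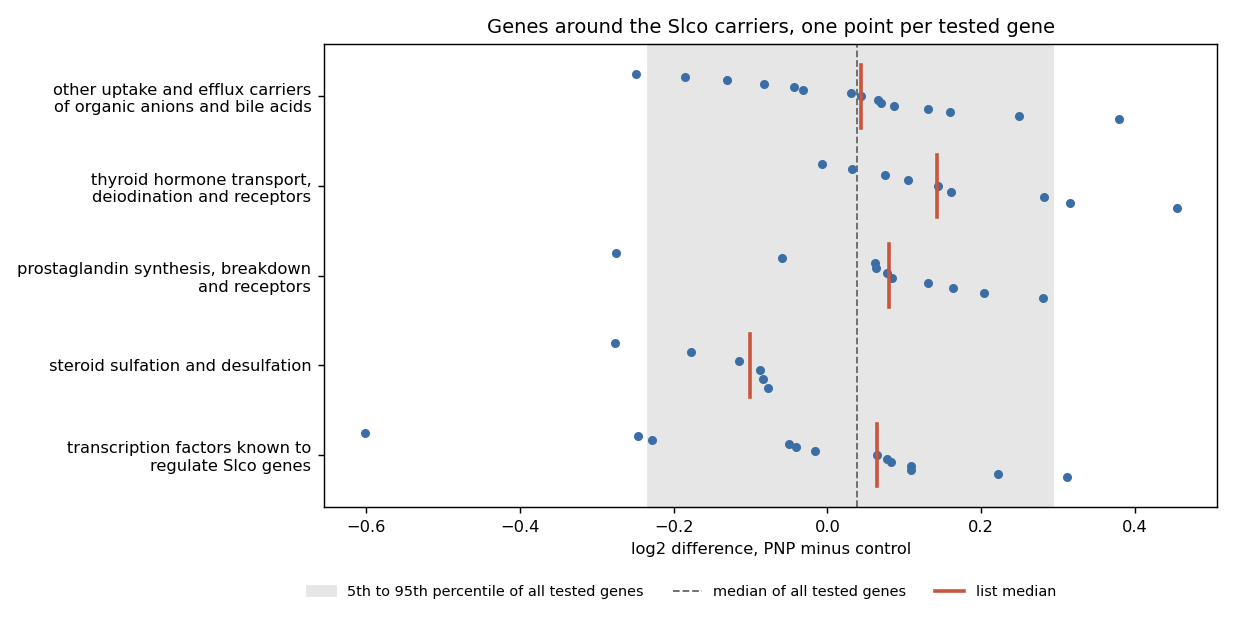
Log2 difference between PNP and control (horizontal axis) of each tested gene in the 5 lists (points), with list medians in red, the median of all tested genes as a dashed line and the 5th to 95th percentile of all tested genes in grey. The medians run from -0.101 for steroid sulfation to 0.143 for thyroid hormone genes, and most genes lie in the grey range.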

How the data were processed

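The deposited scanner files give intensity values, made with Agilent Feature Extraction 11.5.1.1 per the file headers (10.7 per the submitters' processing notes). The processed signal was not scaled between arrays. Its lowest values sit at about the scanner's own signal error (Slco1b2 on control 1 has 25.2 with an error of 25.3), so folds of very dim probes are compressed. The authors' deposited value table holds log2 values, as found against the scanner values (r of 0.9996 to 1 with the own array). Each of its columns has a median of 8.28, with the direction of the scanner signal and no centring. Its normalization is not stated by any label or header. The labels name the dye Cy3, the files a red channel.

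The 75th percentile was taken over all 56605 non-control probes. Spots marked as outliers were then left out. A probe was tested if well above background on all 3 arrays of a group with at least 2 values per group. Probes were named through RefSeq accessions (33767 probes, GRCm38.p6), and the brightest tested probe stood for its gene. R 4.3.3 and limma 3.58.1 (lmFit, eBayes, two-sided, no covariates) were used, with Benjamini-Hochberg adjustment over 13138 genes and a threshold of 0.05. The fit was tested on simulated data. The files hold no mean spot signal, so normexp (offset 50) used the spot median. Exact tests of 3 against 3 arrays cannot go below p = 0.1 and were not run. No array was saturated.

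The members and lists were chosen with earlier results of these data known. Named are the 10 members, the other Slco genes, the 2 genes of smallest p in each list, and the 5 genes of highest correlation with Slco1a4. Il1rl2, Gm27166, Hpgd, Nr1i2, Nr1i3, Ptger1, Ptgds and Sult1e1 were chosen after their values were seen. Sts is named because no probe was matched to it.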

Additional observations from a re-analysis of the deposited data

Results flagged for a closer look

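Both results below are signals of probes that the fit left out as too dim, above the level of every control array. The Slco1a6 probe had a scaled log2 signal of -4.06 on PNP 3, where the other 5 arrays ran from -6.56 to -6.28. The Slco5a1 probe had -2.70 on PNP 3, against -7.34 to -7.12 on the other 5 arrays. PNP 3 lies in slide row 2, and the part of that row in these signals was not tested.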

How the results depend on the processing

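Slco1a4 stayed positive under all 17 alternatives run (0.525 to 1.97) and Slco1a5 negative under all 18 (-0.746 to -0.061). Keeping dim probes or outlier spots, averaging tested probes and the replicate block could not move either difference (1.49 and -0.484). With dim probes kept, however, Slco5a1 differed by 1.62, more than Slco1a4, through its signal on PNP 3 alone. Its PNP mean was under the detection floor of the controls, so that value is not read as a fold. The rise of Slco1a4 chose the family, so its kept direction is no test. Slco1a4 moved by more than the replicate spread in 1 case, to 0.525 with slide row in the fit. Left-out arrays gave 1.07 to 1.97. Requiring all 6 arrays above background left Slco1a4 untested. The count of genes with an adjusted p below 0.05 (limma) was 1 with median scaling and 1 with slide column in the fit, and 0 to 1 when an array was left out. That gene was Gm27166 each time (adjusted p from 0.002 to 0.0387 there, 0.203 in the reported fit). With the replicate number as a block the count was 0, with 576 genes at an unadjusted p below 0.05 (843 without), and Slco1a4 was 1.49 (SE 0.46). Same-numbered arrays did not deviate together (correlations of -0.312, -0.224 and -0.026). With 3 arrays a group, these few correlations cannot decide whether the numbers pair samples. One added alternative, chosen after seeing the data, took the 75th percentile over the probes left after outlier removal. By its construction that uses other probes on each array and moved the median difference of all genes from 0.039 to 0.462. It gave 9335 called genes and 9774 with groups apart (1794 with the percentile over all probes, 1383 to 1681 with the other scalings and the authors' deposited values). The steroid sulfation median turned to 0.322. It called 1 other Slco gene, 10 other carriers, 9 thyroid hormone genes, 8 prostaglandin genes and 9 transcription factors, against 0 in each in the reported fit. Slco1a4 relative to all genes was 1.45 in both, which is no check, since another percentile shifts all genes of an array by the same amount. The share of genes with a positive difference was 61.9%, and 41.9% with median scaling, 54.0% with quantile normalization and 53.5% in the authors' deposited values. Dim signals near the floor limit Slco1a4 in controls.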
